A study of Mus musculus with 24 samples.

Results

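Igf2bp1, Igf2bp2, Igf2bp3, Lin28a, Lin28b, Hmga1 and Hmga2 are 7 of the 35275 genes listed for cultured cells and of the 54532 listed for tumors. They were found by gene symbol, through their Ensembl identifiers, in both sets of deposited values. Igf2bp1 was chosen by its low level in D2.1 against D2A1 tumors of SCID-beige mice, and the other 6 belong to the same families of fetal RNA-binding and chromatin proteins. For that reason the comparison of the lines in SCID-beige mice is described below without a test.

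D2A1 and D2.1 are mouse mammary tumor lines derived from the hyperplastic alveolar nodules called D2, of female BALB/c origin, and both were profiled by RNA-seq. D2A1 cells proliferate rapidly after reaching the lung, whereas D2.1 cells stay dormant there. Each line was sequenced from culture (3 replicates) and as whole tumors, grown in mammary fat pads of BALB/c (4 tumors) or SCID-beige (5 tumors) females, the latter of which lack T and B cells and have defective NK cells. This gives 24 libraries in 6 groups, with the fat pad implantation and the female host shared by all 18 tumors. The mice were 8 to 12 weeks old, per the methods. The paper collected the tumors at a similar volume and describes those of D2.1 as later-stage, so they need not represent dormant cells. Each tumor is from 1 mouse and holds tumor and host cells together, and points from in vitro work are described in general as technical replicates in the methods, which do not say how the sequenced cultures were grown. P-values then measure only the spread between these samples, which may be technical in culture.

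IGF2BP proteins bind messenger RNAs, many of them marked by N6-methyladenosine, and are known to protect them from decay. LIN28 proteins block the maturation of the let-7 family of microRNAs, and let-7 in turn represses the transcripts of LIN28B, of the IGF2BP proteins and of the HMGA proteins, which bend AT-rich DNA. These genes are abundant in the embryo, are mostly silent in adult tissue and often return in tumors, hence the term oncofetal.

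The let-7 sequences are shown because pairing with let-7 is the sequence feature that links the 7 genes. The miRNAs themselves were not measured in these libraries. In the mature miRNAs, taken from RefSeq and printed 5′ to 3′, capitals mark the seed (bases 2 to 8). The same seed is carried by 10 of the 11 mature family members matched, and let-7j differs.
mmu-let-7a-5p: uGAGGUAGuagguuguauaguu
mmu-let-7g-5p: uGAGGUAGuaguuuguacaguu
mmu-miR-98-5p: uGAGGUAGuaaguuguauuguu
mmu-let-7j: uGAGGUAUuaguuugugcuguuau

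The 3′ UTR of every one of the 7 genes, in the longest form of the GENCODE M21 annotation, held at least 1 seed match, the run CTACCTC read on the transcript strand. Among 20997 genes with a 3′ UTR, 9.03% held 1 or more, and 15.2% of the 10241 genes with 1000 or more UTR bases did. The matches numbered 4 in Igf2bp1, 4 in Lin28b, 4 in Hmga2, 2 in Lin28a and 1 each in Igf2bp2, Igf2bp3 and Hmga1, whereas 1.08% of all genes held at least 2. A match describes the sequence and does not show that let-7 acts there. The sites of the genes with readable levels are printed below on the transcript strand with GRCm38 positions, with the match in capitals. The 4 sites of Igf2bp1 and the 4 of Lin28b are set together because these 2 genes differed between the lines in opposite directions.
Igf2bp1 site 1 (chr11:95961767-95961796, minus strand): tgcgaagtaaaCTACCTCaaggtgtgaagt
Igf2bp1 site 2 (chr11:95959346-95959375, minus strand): agtgctattaaCTACCTCagccccagaggg
Igf2bp1 site 3 (chr11:95958752-95958781, minus strand): aaatggatgaaCTACCTCagtcctcacagt
Igf2bp1 site 4 (chr11:95958129-95958158, minus strand): ttggttttaatCTACCTCttagcaaaacaa
Lin28b site 1 (chr10:45381011-45381040, minus strand): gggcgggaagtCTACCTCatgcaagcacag
Lin28b site 2 (chr10:45378637-45378666, minus strand): cttgttagtaaCTACCTCtgagtttgacat
Lin28b site 3 (chr10:45378465-45378494, minus strand): acagcacatggCTACCTCccagctaccaca
Lin28b site 4 (chr10:45377049-45377078, minus strand): gatggcaccgaCTACCTCttcaatcacttg
Igf2bp2 site 1 (chr16:22059462-22059491, minus strand): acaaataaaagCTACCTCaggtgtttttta
Igf2bp3 site 1 (chr6:49086776-49086805, minus strand): tttttactcaaCTACCTCaggtattcagta
Hmga1 site 1 (chr17:27563281-27563310, plus strand): ctgttcacaaaCTACCTCtggacggttgtg
In Igf2bp1 3 of the 4 matches were followed by an A, the base that extends a let-7 site, against 1 of the 4 in Lin28b. The Hmga1 match was not followed by an A.

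Between 16837260 and 24818234 reads were counted on genes in each culture library and between 13566949 and 18355153 in each tumor library. Levels are CPM (counts scaled to a common library size) after TMM normalization within the cell or the tumor table, and a floor of 3 reads stands for 0.121 to 0.221 CPM, which covers counting error only. Epithelial markers summed to 131 to 341 CPM in cultured D2A1 cells and to 2345 to 4650 CPM in cultured D2.1 cells, with Krt5, a basal keratin, at 0 in both. Leukocyte markers reached at most 9.59 CPM in culture and 333 to 858 CPM in tumors. Fibroblast markers summed to 128 to 137 CPM in cultured D2A1 cells, where Dcn, Lum and Thy1 were at 0, and to 1915 to 2734 CPM in cultured D2.1 cells.

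Igf2bp1 (ENSMUSG00000013415, GRCm38 chromosome 11, 95957163 to 96005940, minus strand), which stabilizes Myc and other growth-related transcripts, was expressed in all 12 D2A1 libraries and was at or near 0 in D2.1 tumors. Its level in cultured D2A1 cells was 146, 146 and 121 CPM, from 2531, 2580 and 2283 reads. Cultured D2.1 cells gave 4.19, 5.17 and 4.02 CPM, from 77, 117 and 75 reads. The groups were far apart, with means of 138 ± 14.2 and 4.46 ± 0.625 CPM (SD, n = 3 each), a level 30.9-fold lower in D2.1 cells.

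In BALB/c mice, D2A1 tumors held 77.9, 88.3, 74.0 and 67.0 CPM of Igf2bp1, from 1207 to 1427 reads. The D2.1 tumors gave 18, 0, 0 and 2 reads, or 0.963, 0, 0 and 0.128 CPM. Replicate 1 therefore supplied 18 of the 20 reads, and no D2.1 tumor came near the range of D2A1 tumors. The means were 76.8 ± 8.90 and 0.273 ± 0.464 CPM (SD, n = 4 each), 281-fold lower in D2.1 tumors. Without replicate 1, when 2 reads are left in D2.1, the fold from summed reads was 1891 (95% counting interval 523 to 15621).

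In SCID-beige mice, the contrast by which the gene was chosen, D2A1 tumors held 69.7, 72.3, 72.3, 71.3 and 66.5 CPM. All 5 D2.1 tumors had 0 reads, so the level was at least 391-fold lower, set against 3 reads per library. Of the 14355 genes tested in that contrast, 32.1% passed an adjusted p of 0.05. In descending order the group means in CPM ran from cultured D2A1 cells to D2A1 tumors, cultured D2.1 cells and D2.1 tumors. Per length, the order of D2A1 culture and tumors turned, with mean FPKM (fragments per kilobase of gene and per unit of library size) of 17.2 in culture and 34.9 and 31.4 in tumors of BALB/c and SCID-beige mice, and the 2 tables use different gene lengths. Neighbouring groups in the CPM order overlapped between the hosts for both lines and were separate elsewhere.

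**Figure D1:**
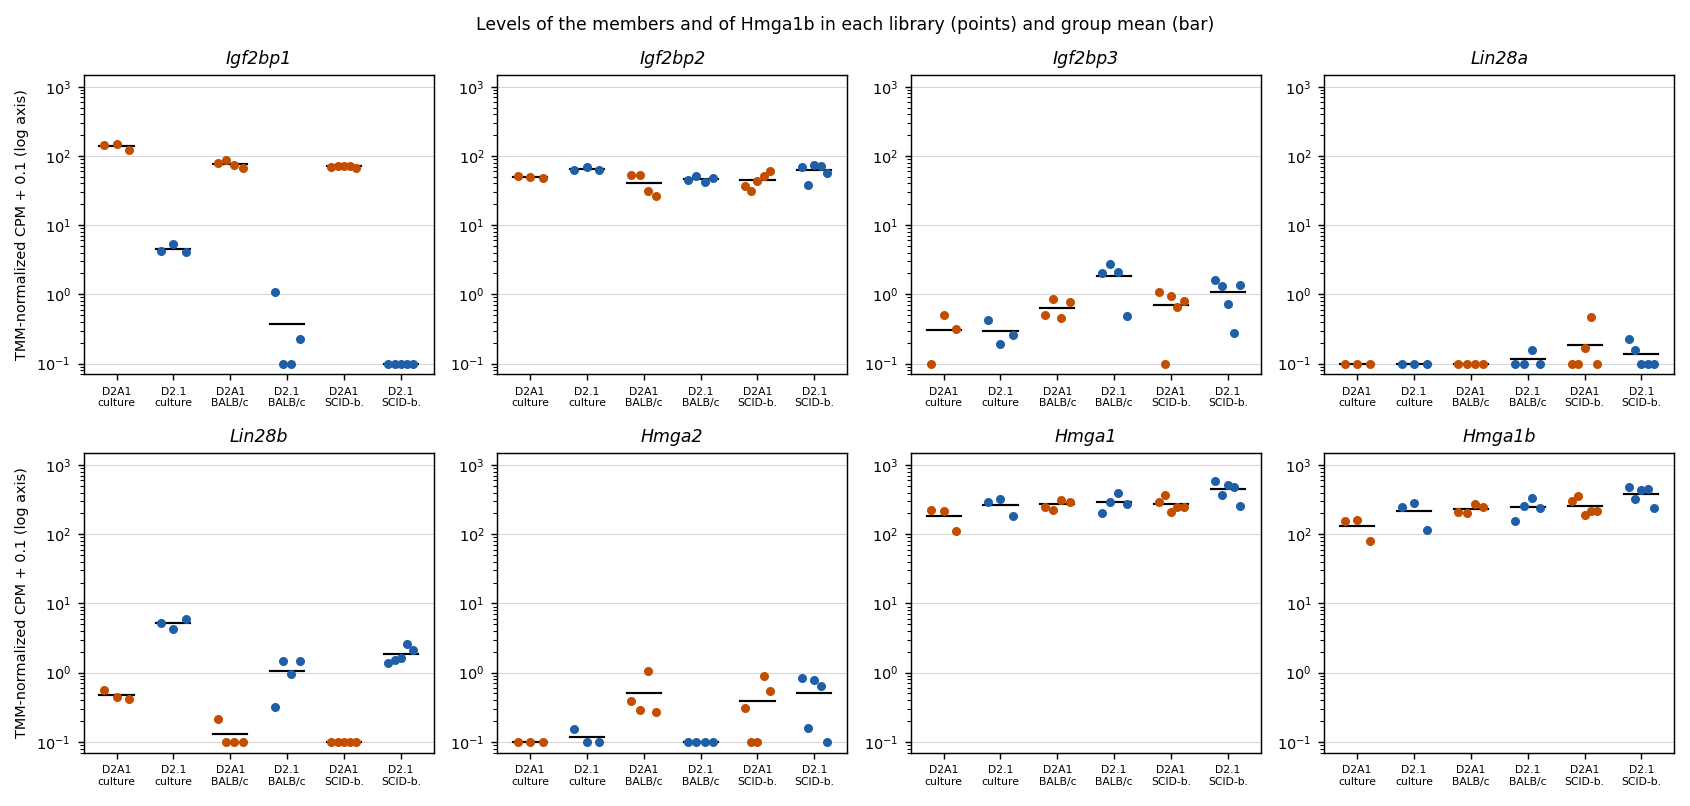
Level of each of the 7 genes and of Hmga1b in the 24 libraries, in TMM-normalized CPM plus 0.1 on a log axis, with points for libraries (orange D2A1, blue D2.1) and a bar for the group mean. Igf2bp1 lay at 66.5 CPM or more in every D2A1 library and at 5.17 CPM or less in every D2.1 library, whereas Lin28b was higher in D2.1 in each setting.

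In culture, edgeR's quasi-likelihood test with Benjamini-Hochberg adjustment passed 44.9% of 12489 genes at an adjusted p of 0.05, with 24.2% higher and 20.7% lower in D2.1 cells. Of the 7 genes, 4 passed the expression filter and 3 of those were called, 2 higher and 1 lower. Igf2bp1 was lower in D2.1 cells by a log2 fold change of -4.94 (SE 0.17, adjusted p = 4.3e-07 by the same test), with no overlap between the groups. In BALB/c tumors 32.6% of 14953 genes were called, 16.8% higher and 15.8% lower, and of the 4 members tested Igf2bp1 was the only one called by edgeR. Its log2 fold change there was -8.01 (SE 0.71, adjusted p = 2.1e-05, edgeR with Benjamini-Hochberg adjustment), and it ranged from -10.64 (without D2.1 replicate 1) to -7.61 when each tumor was left out in turn. As a single value, the exact 2-sided permutation test gave p = 0.0286 for Igf2bp1 in BALB/c tumors, the smallest that 4 against 4 allows, and 0.10 in culture, the smallest that 3 against 3 allows. Adjusted over the 48 comparisons of this kind, no permutation p was below 0.229.

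Igf2bp2 (ENSMUSG00000033581, chromosome 16, 22059009 to 22163299, minus strand), the family member that stays expressed in adult tissues, was present at a like level in all 6 groups. Cultured D2.1 cells held 62.5, 70.1 and 63.5 CPM, all above the 51.8, 49.8 and 47.6 CPM of cultured D2A1 cells. The log2 fold change was 0.39 (SE 0.12, adjusted p = 0.022, edgeR with Benjamini-Hochberg adjustment), a 1.31-fold difference of the means. The call was lost when D2.1 replicate 2 (adjusted p = 0.075), D2A1 replicate 1 (0.074) or D2A1 replicate 2 (0.082) was left out of the edgeR fit.

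In BALB/c tumors the Igf2bp2 ranges overlapped, with 44.5, 51.1, 42.1 and 48.2 CPM in D2.1 and 52.6, 52.7, 30.8 and 25.9 CPM in D2A1, and its log2 fold change of 0.20 (SE 0.24) had an adjusted p of 0.56 by edgeR. In SCID-beige mice D2.1 tumors held 69.0, 37.6, 74.2, 70.3 and 57.3 CPM and D2A1 tumors 36.4, 31.4, 43.1, 50.6 and 61.0 CPM. These ranges overlapped as well. Per length, Igf2bp1 exceeded Igf2bp2 in cultured D2A1 cells, with mean FPKM of 17.2 and 10.5, and in D2A1 tumors of BALB/c mice, with 34.9 and 21.3. In D2.1 the order was the opposite, with mean FPKM of 0.507 and 12.6 in culture and 0.122 and 23.2 in BALB/c tumors.

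Igf2bp3 (ENSMUSG00000029814, chromosome 6, 49085223 to 49214957, minus strand), the placental and embryonic member of the family, was near the floor in culture, with 0 to 7 reads per library, and was not tested there. D2.1 tumors of BALB/c mice gave 36, 44, 34 and 6 reads, or 1.93, 2.65, 1.97 and 0.385 CPM. D2A1 tumors of BALB/c mice gave 7, 12, 6 and 12 reads, or 0.406, 0.743, 0.362 and 0.666 CPM. Only D2.1 replicate 4 fell into the range of D2A1 tumors. The difference of 1.67 (log2, SE 0.59) had an adjusted p of 0.053 by edgeR's quasi-likelihood test, 0.027 by DESeq2, and 0.012 by edgeR without D2.1 replicate 4. The gene shares sequence with Malsu1 on the opposite strand, which had 6295 reads over all tumors, and the strand setting of the counting is not given in the sources used here.

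Lin28b (ENSMUSG00000063804, chromosome 10, 45376620 to 45486395, minus strand), the let-7 inhibitor, was low in both lines and higher in D2.1. Cultured D2.1 cells gave 95, 95 and 109 reads, or 5.17, 4.20 and 5.84 CPM. Cultured D2A1 cells gave 8, 6 and 6 reads, or 0.461, 0.340 and 0.319 CPM. The means of 5.07 ± 0.823 and 0.374 ± 0.0765 CPM (SD, n = 3 each) differed 13.6-fold without overlap, with a log2 fold change of 3.74 (SE 0.33, adjusted p = 3.3e-05, edgeR with Benjamini-Hochberg adjustment).

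In BALB/c mice, D2.1 tumors gave 4, 23, 15 and 21 reads of Lin28b, or 0.214, 1.39, 0.870 and 1.35 CPM. D2A1 tumors gave 2, 0, 0 and 0 reads, so that the groups did not overlap. From summed reads the fold was 31.5 (95% counting interval 8.35 to 265). The gene did not pass edgeR's expression filter for these 8 tumors, and without the filter its log2 fold change was 4.71 (adjusted p = 0.0055, edgeR). In the 5 fits with a tumor left out where it passed the filter, it ran from 4.33 to 7.02, the latter without D2A1 replicate 1, which holds both D2A1 reads. In these fits it passed only through the D2.1 tumors, where it is higher, so this range adds no support. In SCID-beige mice all 5 D2A1 tumors were at 0, against 21, 24, 27, 42 and 32 reads in D2.1 tumors, at least 8.79-fold higher.

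Lin28a (ENSMUSG00000050966, chromosome 4, 134003330 to 134018841, minus strand), the paralog of early embryonic cells, was at 0 reads in all 6 culture libraries. It reached 1 read in the BALB/c tumors of D2.1, 0 in D2A1 tumors of BALB/c mice, at most 2 per D2.1 tumor and at most 6 per D2A1 tumor in SCID-beige mice. No fold is given for it at these counts, and it passed the expression filter in no comparison.

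Hmga1 (ENSMUSG00000046711, chromosome 17, 27556497 to 27563674, plus strand), a chromatin protein of proliferating cells, was the most abundant of the 7 genes per length in every group, with mean FPKM of 100 in cultured D2A1 cells and 132 in cultured D2.1 cells. Cultured D2.1 cells held 292, 321 and 183 CPM and cultured D2A1 cells 221, 217.5 and 110 CPM. The ranges overlapped and the log2 fold change of 0.54 (SE 0.29) had an adjusted p of 0.17 by edgeR. With the replicate number as a block it was 0.56 with an adjusted p of 0.00014 by edgeR, the only call among the members that the block changed in culture. Replicate 3 was the lowest library of both lines.

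In BALB/c mice Hmga1 was at 204, 288, 400 and 274 CPM in D2.1 tumors and at 250, 226, 311 and 289 CPM in D2A1 tumors, overlapping ranges with a log2 fold change of 0.12 (SE 0.20, adjusted p = 0.68, edgeR). In SCID-beige mice it was at 594, 372, 519, 482 and 259 CPM in D2.1 tumors and at 292, 370, 206, 250 and 250 CPM in D2A1 tumors. Only the lowest D2.1 tumor lay below a D2A1 maximum of 370 CPM. Reads may be split between Hmga1 and Hmga1b (ENSMUSG00000078249, chromosome 11, 120762794 to 120764419, plus strand), whose transcripts matched at 1599 of 1602 aligned positions. Hmga1b held 0.630 to 1.03 reads per read of Hmga1 over the 24 libraries. With both summed, the log2 fold change was 0.61 in culture (adjusted p = 0.16) and 0.10 in BALB/c tumors (adjusted p = 0.75, both by edgeR). The 3′ end of Hmga1 also overlaps AI413582 on the opposite strand, with 9377 reads over all tumors.

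Hmga2 (ENSMUSG00000056758, chromosome 10, 120361275 to 120476469, minus strand), the fetal HMGA gene, had 1 read in the 6 culture libraries. D2.1 tumors of BALB/c mice had 0 reads in all 4 libraries and D2A1 tumors had 5, 3, 16 and 3 reads, or 0.290, 0.186, 0.966 and 0.166 CPM. The groups did not overlap, and the level was at least 2.27-fold higher in D2A1 tumors, or at least 1.21-fold higher without D2A1 replicate 3. The gene did not pass the expression filter, and without the filter the adjusted p was 0.019 by edgeR. Hmga2 shares sequence with 1700006J14Rik on the opposite strand, which had 51 reads over all tumors and cannot be told apart from it without the strand setting. In SCID-beige mice both lines ranged from 0 to over 10 reads, with 12, 1, 12, 9 and 0 in D2.1 tumors and 3, 0, 0, 13 and 7 in D2A1 tumors.

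Between the hosts Igf2bp1 is given without a test, since its choice rests on SCID-beige libraries, and no other member was called. In D2.1 tumors edgeR called 0.891% of 14929 genes between the hosts, and 0 of the 4 members tested, with 1 at an unadjusted p under 0.05 and 0 called by DESeq2. It was Hmga1, whose log2 difference of BALB/c minus SCID-beige was -0.58 (SE 0.25, adjusted p = 0.44, edgeR). Lin28b differed by -0.86 (SE 0.55, adjusted p = 0.70) and Igf2bp2 by -0.38 (SE 0.20, adjusted p = 0.59) in the same edgeR fit. In D2A1 tumors 1.17% of 14572 genes were called and 0 of the 3 other members tested, with 0 at an unadjusted p under 0.05 and 0 by DESeq2. The Igf2bp1 ranges there, 67.0 to 88.3 CPM in BALB/c and 66.5 to 72.3 CPM in SCID-beige mice, overlapped.

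Whether the line difference itself depended on the host was tested as an interaction over all 18 tumors. EdgeR called 0.0187% of 16036 genes and 0 of the 5 members tested other than Igf2bp1, which is left out because its choice rests on these libraries, and DESeq2 also called 0. At an unadjusted p under 0.05 there was 1, Hmga2 (-6.19, SE 2.12, adjusted p = 0.41, edgeR).

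Tumors of BALB/c mice were set against the cultured cells of the same line by joining the raw counts. Among the genes tested, 57.4% of 14387 in D2.1 and 56.0% of 14008 in D2A1 were called, and the median log2 change over all of them was 0.14 and 0.09. Growth in the mouse, the host cells of the tumor and separate sequencing cannot be told apart here, and in bulk samples fewer cells of a type and less RNA per cell cannot be told apart either. Fibroblast markers rose from 128 to 137 CPM in cultured D2A1 cells to 2036 to 3108 CPM in their BALB/c tumors, and from 1915 to 2734 CPM to 9369 to 15369 CPM for D2.1. Their part in the results was not tested.

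In D2.1, where 34.3% of genes rose and 23.1% fell, 5 members were tested, of which 3 fell and 1 rose in tumors. Igf2bp1 fell by 3.99 on the log2 scale (SE 0.98, adjusted p = 0.0054; by 6.61 without tumor replicate 1), Lin28b fell by 2.46 (SE 0.54, adjusted p = 0.0029) and Igf2bp2 fell by 0.54 (SE 0.16, adjusted p = 0.014), all by edgeR. The ranges of Lin28b, 0.214 to 1.39 CPM in tumors and 4.20 to 5.84 CPM in culture, did not overlap. Igf2bp3 rose by 3.11 (SE 0.78, adjusted p = 0.0062, edgeR), from 2 to 6 reads per culture to 6 to 44 reads per tumor. It passed the expression filter only through the tumors, where it is higher, and in only 4 of the fits with a library left out. Its culture level is near the floor, so the call is weak support for a rise. The overlap with Malsu1 on the opposite strand applies here too. Hmga1 changed by 0.09 (SE 0.26, adjusted p = 0.80, edgeR). The Igf2bp2 call was lost without culture replicate 2 (adjusted p = 0.067, edgeR) and with SCID-beige tumors in place of BALB/c tumors (-0.19, adjusted p = 0.47).

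In D2A1, where 33.2% of genes rose and 22.8% fell, 3 members were tested and Igf2bp1 was the only one called, falling by 0.96 on the log2 scale (SE 0.15, adjusted p = 0.00029, edgeR), 1.80-fold. Every D2A1 tumor of BALB/c mice, at 67.0 to 88.3 CPM, lay below every D2A1 culture, at 121 to 146 CPM. Igf2bp2 differed by -0.42 (SE 0.24, adjusted p = 0.17) and Hmga1 by 0.45 (SE 0.24, adjusted p = 0.14) in the same edgeR fit. The copy Hmga1b rose by 0.72 (adjusted p = 0.028, edgeR). With each library left out, its adjusted p ran from 0.022 to 0.069 by edgeR, so the call was not always kept. Reads may be split between it and Hmga1.

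The gene lengths behind the deposited FPKM values differ between the tables, which bears on each value set across culture and tumor. The length of Igf2bp1 was 8378 bases in the cell table and 2270 in the tumor table, 27.1% of the former, and the median ratio over all genes was 0.691. On the FPKM scale the change of Igf2bp1 in D2A1 turned to 1.02, that of Igf2bp2 in D2A1 to 1.02 and that of Igf2bp2 in D2.1 to 0.88 (log2), whereas Igf2bp1 in D2.1 stayed lower in tumors at -2.06 and Lin28b at -1.65. Genes whose tumor length was under 0.3 of the cell length had a median count change of -0.07 in D2.1 (482 genes) and -0.18 in D2A1 (475 genes), against 0.16 and 0.15 in genes of like length. Divided by the lengths, the medians of these genes became 1.84 in D2.1 and 1.75 in D2A1, against 0.16 and 0.15 in genes of like length. A rise per length was thus usual in the length class that holds Igf2bp1. Differences between the lines within a table compare values of the same gene length. The tumors of the lines still differed in fibroblast and endothelial markers, whose part in these differences was not tested.

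The change of the line difference between culture and BALB/c tumors, which compares each gene with itself in both tables, was tested as an interaction. EdgeR called 14.4% of 15222 genes, 5.48% with a higher and 8.90% with a lower difference in tumors, and 1 of the 5 members tested. The D2.1 against D2A1 difference of Igf2bp1 was larger in tumors by -3.03 on the log2 scale (SE 0.71, adjusted p = 0.0089, edgeR), and stayed between -5.68 (without D2.1 tumor replicate 1) and -2.62 with each library left out. The difference of Lin28b moved by 0.99 (SE 0.97, adjusted p = 0.59, edgeR) with BALB/c tumors, and by 4.12 (adjusted p = 0.0073, edgeR) with SCID-beige tumors in their place, where all D2A1 tumors were at 0.

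**Figure D2:**
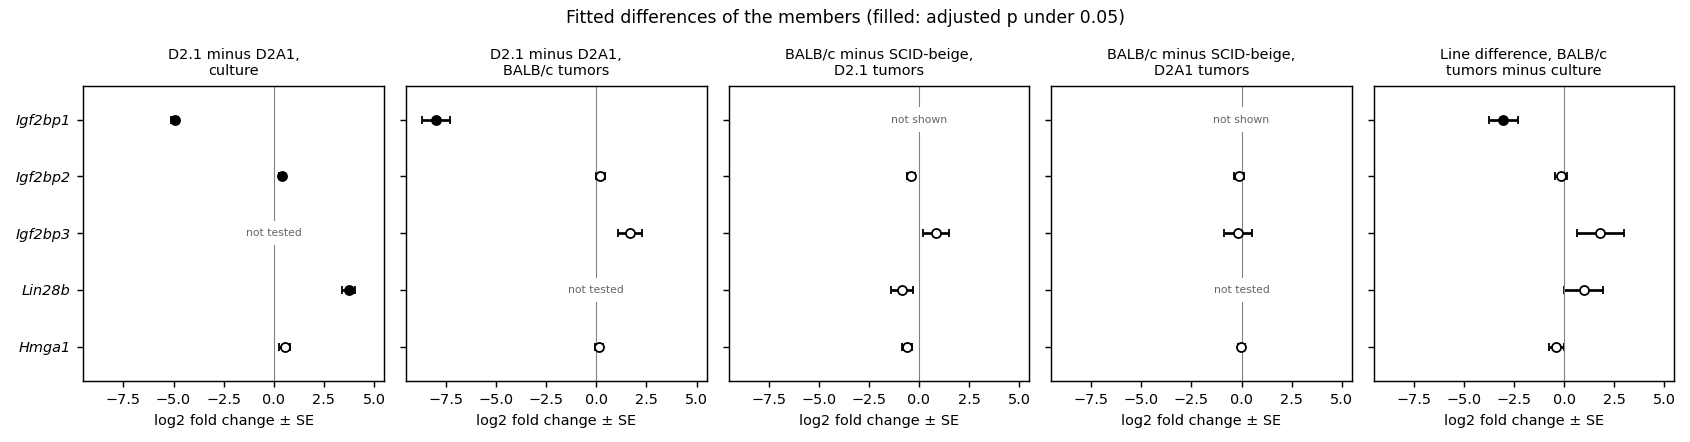
Log2 fold changes with their standard errors from edgeR for 5 members, between the lines in culture and in BALB/c tumors, between the hosts for each line (without Igf2bp1), and for the change of the line difference between culture and tumors, filled where the adjusted p was under 0.05. Igf2bp1 stands at -4.94 in culture and -8.01 in BALB/c tumors, Lin28b at 3.74 in culture, and the other members lie closer to 0 between the lines.

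Genes whose level profile lay closest to that of Igf2bp1 were ranked by the root mean square difference of centred log2 CPM over the 24 libraries among 14048 genes. They were Wfdc2 (1.36), Morc1 (1.70), Tnnt2 (1.74), Pitx1 (1.86) and Trim54 (1.93), against a median of 4.32 over the genes compared. Wfdc2, a secreted protease inhibitor, averaged 270 CPM in cultured D2A1 cells and 9.12 CPM in cultured D2.1 cells. Its BALB/c tumors averaged 203 CPM in D2A1 and 2.59 CPM in D2.1. Morc1, a germ cell chromatin gene, averaged 18.1 and 19.1 CPM in D2A1 culture and BALB/c tumors and at most 0.0145 CPM in D2.1 groups. Over the 18 tumors alone, the nearest genes were Olfr1501 (0.31), Morc1 (1.06), Pitx1 (1.11), Mmp10 (1.19) and Tnnt2 (1.28), of which 3 were shared with the list over 24 libraries.

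**Figure D3:**
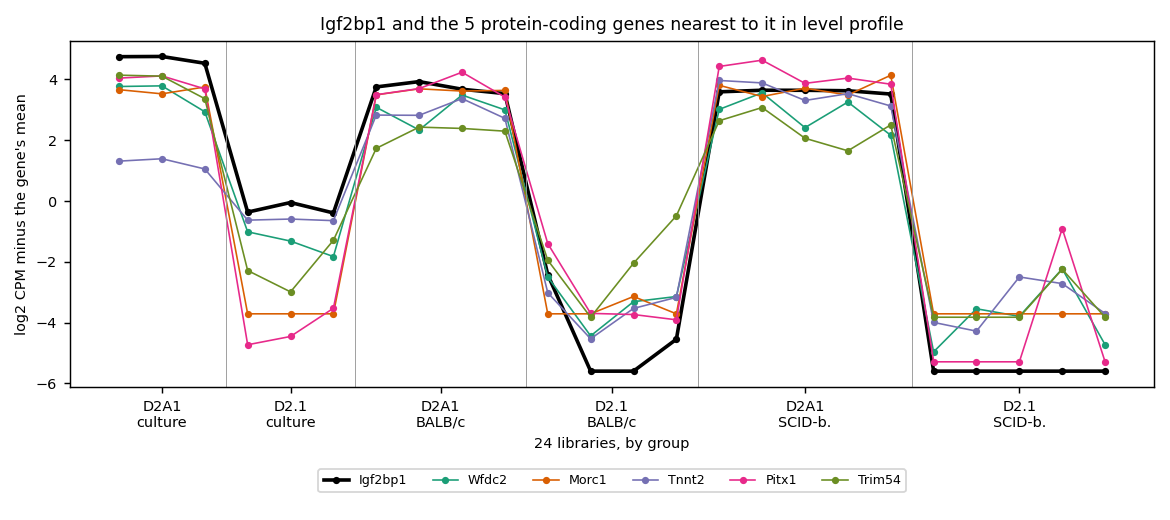
Log2 CPM minus the mean of the gene in the 24 libraries, by group, for Igf2bp1 (black) and the 5 protein-coding genes nearest to it. All 6 lie above their means in D2A1 libraries and below in D2.1 libraries, as follows from picking the 5 by likeness over these libraries. Igf2bp1, Wfdc2 and Tnnt2 drop further from D2.1 culture to every D2.1 tumor.

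Of the tested genes around Igf2bp1, 1 passed the test in each setting, with a smaller fold change, where 44.9% of all genes passed in culture and 32.6% in BALB/c tumors. Within 250 kb of its start, 11 other protein-coding genes are annotated. In culture 3 of them were tested and 1 was called, Snf8, an ESCRT subunit, with a log2 fold change of 0.42 (SE 0.13, adjusted p = 0.028, edgeR). In BALB/c tumors 6 were tested and 1 was called, Phospho1, a phosphatase of mineralizing tissue 181 kb away, with -2.03 (SE 0.49, adjusted p = 0.0094, edgeR). It averaged 3.09 CPM in D2A1 and 0.744 CPM in the BALB/c tumors of D2.1. Ube2z, a ubiquitin-conjugating enzyme, averaged 226 CPM in D2A1 and 211.2 CPM in D2.1 tumors, and the log2 fold change was -0.09.

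**Figure D4:**
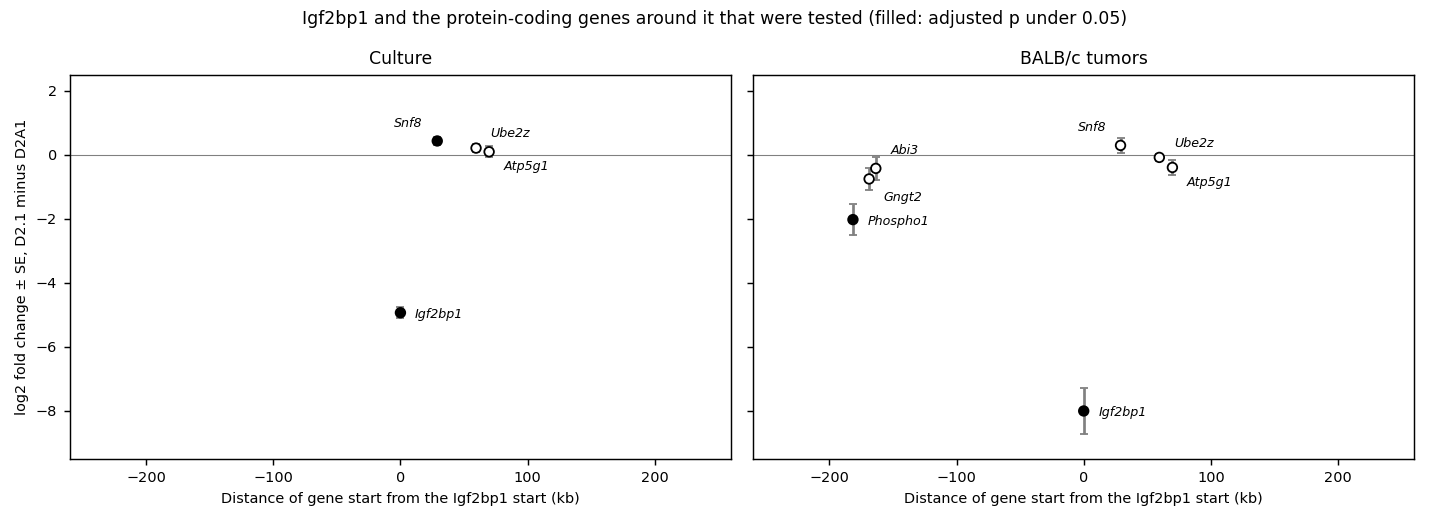
Log2 fold change (D2.1 minus D2A1, with SE) of Igf2bp1 and of the tested genes within 250 kb, against the distance of their start from that of Igf2bp1 in kb, in culture and in BALB/c tumors. Igf2bp1 lies at -4.94 and -8.01, and its tested neighbours lie between -2.03 and 0.42.

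Lists of connected genes were counted between the lines, and their directions were mixed. Each count below stands against 44.9% of all genes called in culture and 32.6% in BALB/c tumors. Of the genes that make or degrade let-7, 17 were tested in each setting, with 4 higher and 6 lower in cultured D2.1 cells (median log2 fold change -0.14) and 4 higher and 2 lower in BALB/c tumors of D2.1 (0.11). The medians of all genes tested were -0.02 in both. In tumors the named risers were Mir99ahg, the host transcript of let-7c, at 4.17 against 15.4 CPM (1.89, SE 0.50, adjusted p = 0.015), Zfp36l1, an RNA decay factor, and Ago3, a small RNA effector. Xpo5, the exporter of miRNA precursors, was lower in D2.1 in tumors (-0.51, SE 0.14, adjusted p = 0.018, edgeR) and in culture (-0.60, adjusted p = 0.0027). Host gene transcripts are not mature miRNA. Mir99ahg averaged under 1 CPM in both cultures, and fibroblast markers were higher in D2.1 tumors, 7 of 7 called, whose part in its level was not tested.

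Of 25 other let-7 targets tested in BALB/c tumors, 5 were higher and 8 lower in D2.1 (median -0.21), where 32.6% of all genes were called, against 3 higher and 6 lower of 24 in culture (-0.08), where 44.9% were. Myc, the growth regulator and a known IGF2BP client, averaged 297 ± 50.1 CPM in D2A1 and 70.9 ± 19.2 CPM in the BALB/c tumors of D2.1 (SD, n = 4 each). Its log2 fold change was -2.06 (SE 0.21, adjusted p = 5.4e-05) in tumors and -1.59 (adjusted p = 4.7e-05) in culture, both by edgeR. Irs2, an insulin receptor substrate, was lower in tumors (-1.53, SE 0.25, adjusted p = 0.0011, edgeR) and at -0.06 in culture. Ccr7, a lymphocyte homing receptor, was higher in D2.1 tumors (3.05, SE 0.39, adjusted p = 0.00023, edgeR) and averaged under 0.1 CPM in both cultures. Arid3b and Fas were higher too, at 1.47 and 0.88, and Il6 was lower at -2.32 (log2, edgeR, each called). In culture Il6 was not tested, and lay the other way, at 0.132 ± 0.0879 CPM in D2A1 and 9.68 ± 8.51 CPM in D2.1 (SD, n = 3 each).

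Of the known IGF2BP clients, 10 were higher and 4 lower of 17 tested in culture (median 0.67), against 44.9% of all genes called, of which 24.2% higher and 20.7% lower. In BALB/c tumors 6 were higher and 4 lower of 19 (0.21), against 32.6% of all genes called. The Hedgehog factor Gli1 averaged 0.855 CPM in D2A1 and 17.2 CPM in the BALB/c tumors of D2.1 (4.33, SE 0.33, adjusted p = 7.7e-06, edgeR), and was also higher in cultured D2.1 cells by 3.18 (adjusted p = 4.1e-06). The drug efflux pump Abcb1b was higher by 2.73 in tumors and 4.27 in culture. H19, a fetal imprinted RNA, was at 5.44 and 19.6 CPM (1.85, SE 0.44, adjusted p = 0.0089, edgeR) and at or under 0.0544 CPM on average in culture. Ptgs2, a prostaglandin synthase, was lower in D2.1 tumors, at 5.18 against 0.936 CPM (-2.44, SE 0.58, adjusted p = 0.0086, edgeR).

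Among 19 genes that write, erase or read N6-methyladenosine, 1 was higher and 2 were lower in D2.1 in culture (median -0.17) and 1 higher and 2 lower in BALB/c tumors (-0.25), beside 44.9% and 32.6% of all genes called. The eraser Fto was higher in tumors (0.78, SE 0.13, adjusted p = 0.0012) and the RNA-binding proteins Elavl1 (-0.66, SE 0.13, adjusted p = 0.0030) and Hnrnpa2b1 (-0.44, SE 0.12, adjusted p = 0.020) were lower, all by edgeR. Of other oncofetal genes, 1 was higher and 2 lower of 5 tested in culture, and 2 higher and 1 lower of 7 in tumors, beside the same shares. The lower gene of the tumors was Afp, the fetal albumin, at 5.54 CPM in D2A1 and 0.160 CPM in D2.1 (-5.04, SE 0.70, adjusted p = 0.00041, edgeR), with -1.19 (adjusted p = 0.0069) in culture. Arid3a was higher, by 0.87 in tumors.

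The remaining HMG genes had 2 higher and 1 lower of 11 tested in culture and 3 higher and 3 lower of 11 in BALB/c tumors (medians 0.03 and 0.04), beside 44.9% and 32.6% of all genes called. The nucleosome-binding Hmgn3 was higher in D2.1 in both, by 5.20 (adjusted p = 1.8e-06) in culture and 3.63 (SE 0.32, adjusted p = 1.9e-05) in tumors by edgeR, at 1.76 against 21.8 CPM in tumors. Hmgb2, a chromatin protein of dividing cells, was lower in D2.1 tumors (-1.60, SE 0.20, adjusted p = 0.00019, edgeR), at 243 against 79.9 CPM. Hmgb3 and Hmgn1 were lower by -1.29 and -0.57, and Hmg20b was higher by 0.67, in tumors. Between tumor and culture, 8 HMG genes of 11 were lower and 2 higher in tumors of each line, beside 23.1% of all genes lower and 34.3% higher in D2.1 and 22.8% and 33.2% in D2A1.

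**Figure D5:**
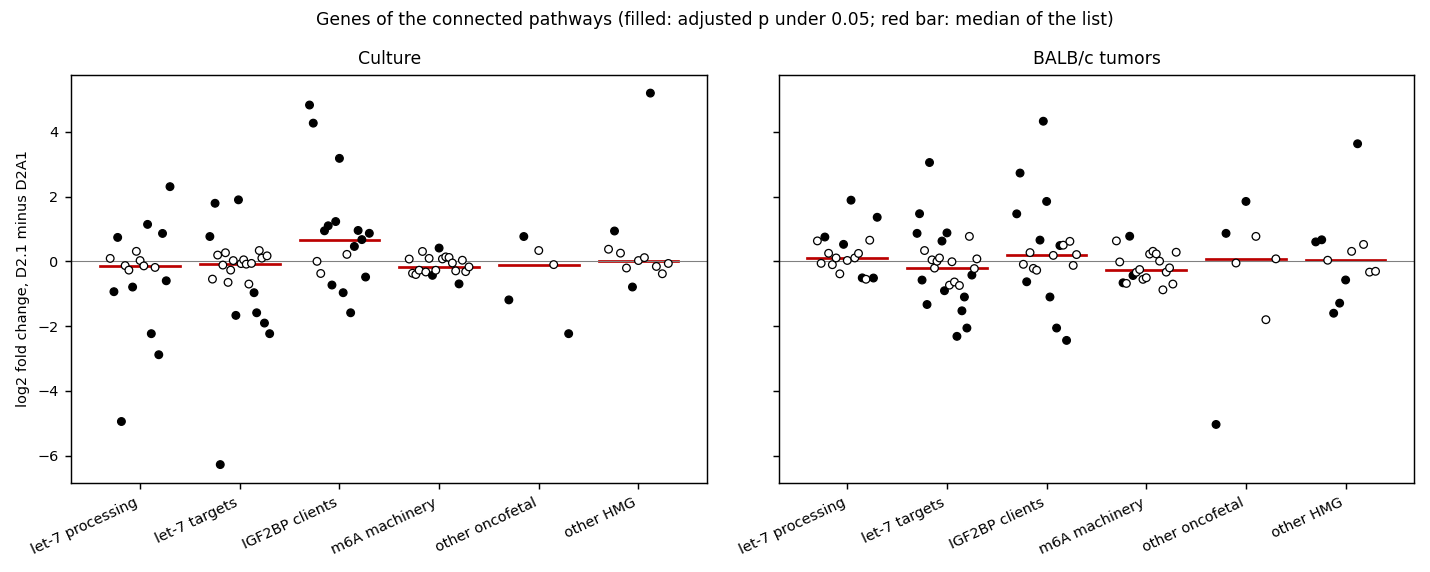
Log2 fold changes (D2.1 minus D2A1) of the tested genes of 6 lists connected with the members, in culture and in BALB/c tumors, filled where the adjusted p was under 0.05, with a red bar at the median of the list. Every list holds called genes on both sides of 0, and the medians lie between -0.25 and 0.67.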

How the data were processed

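Bulk RNA-seq of 6 cultures and 18 tumors was analysed, and every library was assigned to its group by its labels. The authors had the libraries sequenced by Novogene and processed with Novogene's pipeline or GENAVi, and the submitters' processing notes name STAR and mm10. The counting program, annotation and strand setting are not given in the sources used here. The authors deposited raw counts of reads per gene, and FPKM values that equal these counts divided by the library total and by a gene length that differs between the cell and tumor tables. Identifiers were matched to GENCODE M21 (GRCm38), and unmatched ones took 0.0969% of the counts in cells and 0.0446% in tumors.

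Counts were tested with edgeR 4.0.16 in R 4.3.3 (TMM, the filterByExpr filter, quasi-likelihood fits made robust, Benjamini-Hochberg adjustment over all genes tested, threshold 0.05), with only the groups compared in each fit and interactions over 4 groups. The standard error is the log2 fold change divided by the square root of F. Permutation tests used log2 of CPM plus 0.1. A fold against a group at 0 was computed against 3 reads per library as a lower bound, and against 1 to 3 reads from summed reads with an exact binomial interval. Seed matches were searched with Python 3.11.15. The scripts were tested on simulated counts in which 200 genes were shifted by 2 (log2).

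The 7 genes and the lists were chosen with earlier results of these data known. Named in addition were the copy Hmga1b, up to 3 genes higher and 3 lower of each list by fitted change among those called in BALB/c tumors with at least 1 CPM in the higher group, the 5 genes nearest to Igf2bp1 in profile and its neighbours within 250 kb. Of the genes this rule names, 2 are not reported here. Markers of epithelial cells, leukocytes, fibroblasts, endothelium, adipocytes, skeletal muscle and of embryo and placenta were summed. No pair of libraries within a group was a copy of another (38 pairs, chi-square per degree of freedom 5.20 to 129). Libraries with the same replicate number deviated together in culture (correlation 0.184 to 0.491) and in BALB/c tumors (0.100 to 0.491), so the number was used there as a block in an alternative fit. Only the libraries of replicate 3 in culture and of replicate 2 in BALB/c tumors correlated best with each other. Other alternatives were DESeq2 1.42.0, its size factors in edgeR, other filters, a log2 fold change beyond 1 and 1 fit of 4 groups. SCID-beige tumors were also put in place of BALB/c tumors, and each library was left out in turn. On the FPKM scale only log2 ratios of group means were taken, without a test. The summing of Hmga1 and Hmga1b was added after seeing the data.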

Additional observations from a re-analysis of the deposited data

Results flagged for a closer look

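In groups of 4 or 5 tumors, the highest or lowest library was set apart when its gap to the nearest of the others, relative to the range of the group, passed Dixon's 95% limit. This held for 5 of 24 gene and group pairs with differing values. A group whose only reads lie in 1 library is always set apart, so no share expected by chance is given. That was so for Lin28a in D2.1 and for Lin28b in D2A1 tumors of BALB/c mice. All 5 rest on few reads. Igf2bp1 was at 0.963 CPM in D2.1 replicate 1 of BALB/c mice (18 reads, against 0 to 2 in the other 3 tumors). Hmga2 was at 0.966 CPM in D2A1 replicate 3 of BALB/c mice (16 reads). Lin28a was at 0.371 CPM in D2A1 replicate 4 of SCID-beige mice (6 reads) and at 0.0580 CPM in D2.1 replicate 3 of BALB/c mice (1 read). Lin28b was at 0.116 CPM in D2A1 replicate 1 of BALB/c mice (2 reads).

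The difference of Igf2bp1 between the lines was itself different in culture and in BALB/c tumors, by -3.03 on the log2 scale (SE 0.71, adjusted p = 0.0089, edgeR interaction test with Benjamini-Hochberg adjustment). Its part from D2.1 replicate 1, the tumor with 18 reads, is seen in the value without that tumor, -5.68.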

How the results depend on the processing

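For the members, 608 of 638 alternative values kept their direction and their side of the threshold and 15 turned in direction. These counts include values of Igf2bp1 from fits with SCID-beige libraries, by which it was chosen, and their agreement supports nothing. Of the called values only Igf2bp1 in D2A1 and Igf2bp2 in D2.1, tumor against culture, turned, to 1.02 and 0.88 on the FPKM scale, where the gene lengths differ between the tables. Igf2bp2 in D2A1 turned there to 1.02 and Hmga1 between hosts in D2A1 to 0.016. Turned and not called were Igf2bp3 between hosts in D2A1 under a replicate block (0.11), and, with SCID-beige tumors in place of BALB/c tumors, the interactions of line and setting of Igf2bp2 (0.089) and Hmga1 (0.18). With each library left out, the line difference of Hmga1 in BALB/c tumors ran from -0.067 to 0.26, its tumor difference in D2.1 from -0.18 to 0.24, and the host differences in D2A1 from -0.13 to 0.093 for Hmga1, -0.29 to 0.0036 for Igf2bp2 and -0.50 to 0.040 for Igf2bp3.

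The members called between the lines in BALB/c tumors went from 1 to 2 by DESeq2, to 3 without a filter, to 3 with all 4 tumor groups in 1 fit and to between 1 and 2 with a library left out. In D2A1 tumors against culture they went from 1 to 3 without a filter and to 0 beyond a log2 fold change of 1, and for line by setting from 1 to 2 with SCID-beige tumors, where Igf2bp1, one of them, was chosen by these libraries and its call supports nothing. Of all genes, those called beyond a log2 fold change of 1 numbered 2786 in culture (5602 without that limit), 2939 in BALB/c tumors (4868) and 4946 in D2A1 tumors against culture (7844). Between hosts in D2.1 tumors 133 genes were called, and 461 by DESeq2, 275 without a filter, 261 with 4 groups in 1 fit, 14 with a replicate block and 26 to 314 with a library left out. Between hosts in D2A1 tumors 170 were called, and 565 by DESeq2, 0 with a replicate block and 27 to 172 with a library left out. For line by host 3 genes were called, and 102 by DESeq2, 6 with its size factors, 7 without a filter and 0 to 12 with a library left out. The cause of these differences was not tested.

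A replicate block called 7539 genes in culture and 7116 in BALB/c tumors, and among the members it changed no call but that of Hmga1 in culture. Between hosts the libraries only share a number (correlation -0.198 to 0.169 in D2.1 and -0.441 to -0.187 in D2A1), and in no pair did both libraries correlate best with each other. The levels of Lin28a, at 6 reads or fewer in every library, cannot be ranked at this depth.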

Other observations

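Each count of called markers below stands against 32.6% of all genes called between the lines in BALB/c tumors. Adipocyte markers summed to 23.1 to 429 CPM in D2.1 and 51.1 to 195 CPM in D2A1 tumors of BALB/c mice, with 0 of 6 markers called between the lines by edgeR. Skeletal muscle markers summed to 56.3 to 373 CPM and 8.55 to 83.0 CPM, with 1 of 8 called. Endothelial markers were lower in D2.1 tumors, 4 of 6 called, at 88.0 to 145 CPM against 231 to 297 CPM. Of 10 leukocyte markers tested, 6 were called higher and 1 lower in D2.1 tumors. Epithelial markers summed to 364 to 605 CPM in D2.1 and 524 to 621 CPM in D2A1 tumors of BALB/c mice, with 4 higher and 1 lower of 8. Markers of embryo and placenta, among them the pluripotency gene Pou5f1, summed to at most 2.14 CPM in every library.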
